A study of Mus musculus with 46 samples.

Results

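The liver that remains after partial hepatectomy (PH) was examined 4 h after surgery in young mice, by setting the 3 arrays of young liver 4 h after PH beside the 3 arrays of young liver at 0 h. These 6 arrays were chosen by their labels alone, out of 46 arrays in the series, and all 12422 probe sets other than the array's control probe sets were compared. All mice were males of the CB6F1 hybrid strain. In every group the young mice were 5 to 6 months old and the old mice 25 to 27 months. Each PH group had lost 70% of the liver mass. The young PH 4 h mice had been anaesthetised by injected avertin followed by inhaled isoflurane. Further groups used here are young liver 4 h after a sham operation (2 arrays), young liver 0.5, 1 and 2 h after PH (3 arrays each), old liver 4 h after PH (3 arrays, 25 to 27 months old), old liver at 0 h (3 arrays) and young liver at 0 h (3 arrays), whose labels give the treatment as none. The ages were bought from separate suppliers, so age and supplier cannot be told apart. The labels do not settle whether the 0 h mice were anaesthetised, so a difference from 0 h can hold effects of anaesthesia, surgery and time together with that of losing liver mass. The labels do not tell whether replicate arrays are separate mice, and the p-values therefore cover only array-to-array spread, some of which may be technical.

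After PH, hepatocytes, which are normally quiescent, leave the resting state and prepare to divide, and most of the lost mass is regained by division of the cells that remain. The hours before DNA synthesis are known as the priming phase. In it, cytokines such as tumour necrosis factor and interleukin 6 act on hepatocytes through NF-kB and STAT3, immediate early genes are transcribed without new protein synthesis, and the remnant keeps up the work of the whole organ in glucose output, bile formation and detoxification. The same cytokines also drive the acute phase response, in which hepatocytes secrete defence and transport proteins after any injury.

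The values are log2 expression values from Affymetrix Murine Genome U74 version 2 arrays, made by RMA (robust multi-array average). A difference of 1 is a 2-fold change, and differences are given with their standard error. Replicates of the 2 main groups correlated at 0.989 to 0.996, against 0.976 to 0.984 between the groups, and the array medians of the series lay between 6.22 and 6.33. Replicate 3 of the young 0 h group stood apart in the beta-actin control probe set, whose 3′ form read 12.50 to 12.76 on the PH 4 h arrays, 10.76 on that replicate, and 12.59 and 12.67 on the other 0 h arrays. The young sham 4 h arrays also read low in that probe set, at 11.40 and 11.45. The mean of the spike-in controls, which are added to the sample and not made by the liver, was 9.70 to 10.90 on the PH 4 h arrays, against 9.43 and 9.44 on the sham 4 h arrays, 8.05 to 9.05 on the PH 2 h arrays and 8.79 to 10.43 on the 0 h arrays. The part of these technical differences in the results was not tested beyond the fits without 1 array and with the spike-in mean as a covariate.

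In young liver 4 h after PH, the metallothionein genes Mt1 and Mt2, the acute phase genes Lcn2 and Saa2, the growth factor binding protein gene Igfbp1 and the chemokine gene Cxcl1 were more than 4 log2 units above their 0 h values. The transcription factor genes Foxa1 and Hhex were the furthest below among passing genes. Of 12422 probe sets, 952 passed the threshold of an adjusted p under 0.05 in limma, which is 7.66%. Of these, 407 were higher (3.28%) and 545 lower (4.39%) at PH 4 h than at 0 h. Counted as genes, with the brightest probe set standing for each, 693 of 8251 passed (8.4%), 271 of them higher (3.28%) and 422 lower (5.11%). Large changes were mostly upward: 119 passing probe sets were at least 1 log2 unit higher and 50 at least 1 unit lower. The 3 PH 4 h arrays all lay above the 3 0 h arrays in 389 of the passing probe sets and all below them in 526. Separation was counted only among probe sets that had passed for the same difference, so it adds no support. Its share over all probe sets was not counted. The median difference over all genes was -0.019. The count of 952 became 548 without PH 4 h replicate 1, 603 without 0 h replicate 1 and 602 without 0 h replicate 2. Without 0 h replicate 3 it was 741, and 651 of the 952 passed in the same direction with and without that array.

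**Figure D1:**
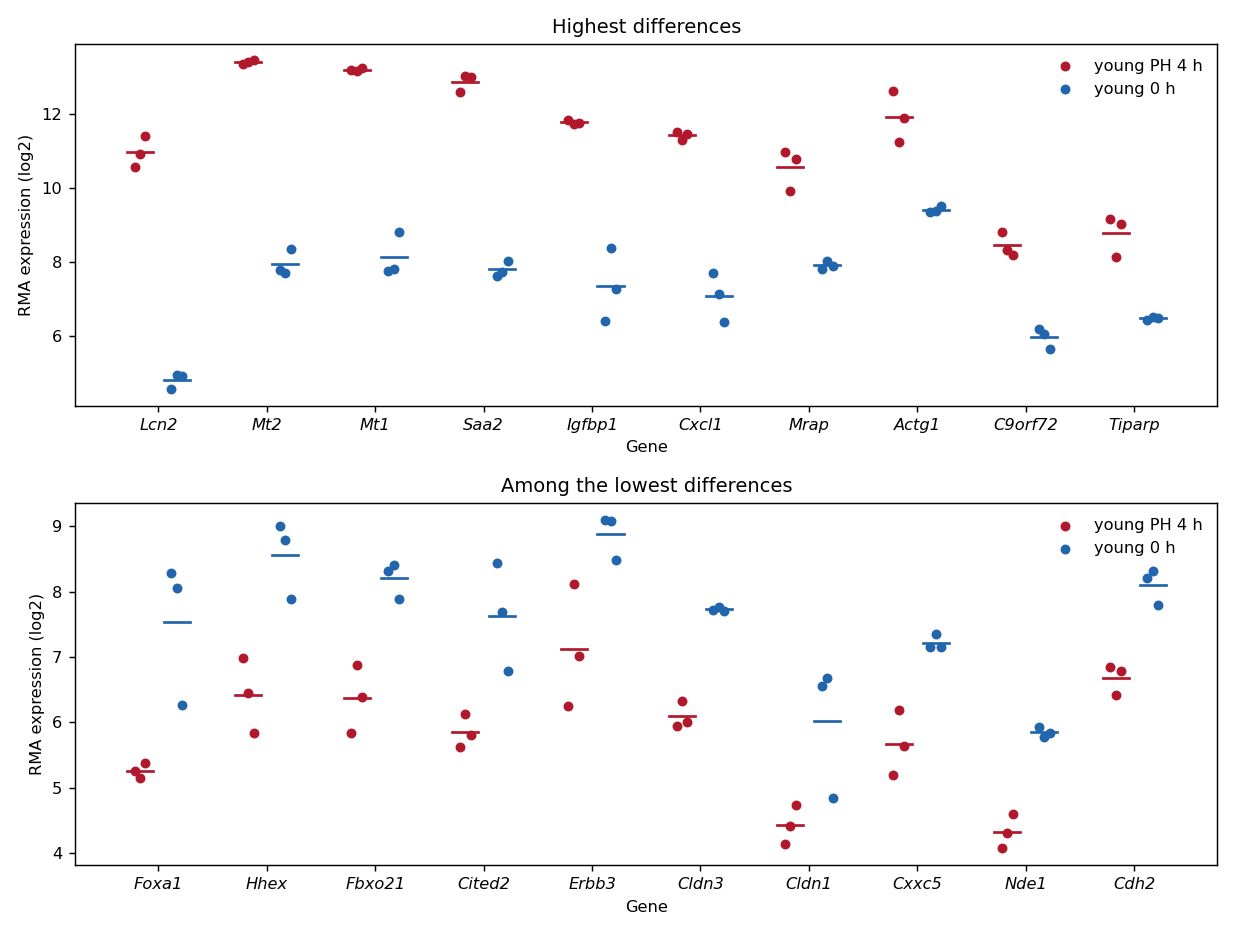
RMA expression (log2, vertical axis) of 10 genes with the highest differences (upper panel) and 10 genes among the lowest (lower panel), for each young PH 4 h array (red, left) and each young 0 h array (blue, right), with a bar at the group mean of 3 arrays. Chosen by their differences, all 20 genes separate the groups without overlap. The rightmost blue point, 0 h replicate 3, lies closest to the PH arrays for Foxa1, Cited2 and Cldn1.

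The 3 genes furthest above 0 h were Lcn2, Mt2 and Mt1. Lcn2 encodes lipocalin 2, a secreted protein that binds the iron carriers of bacteria, and it read 10.57, 10.92 and 11.40 on the PH 4 h arrays, against 4.57, 4.94 and 4.92 on the 0 h arrays. The groups lay about 6 units apart with no overlap. The difference was 6.15 ± 1.16, a 71.2-fold change (limma adjusted p = 0.000676). Its other probe set gave 0.45 ± 0.16 (adjusted p = 0.073).

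Among gene lists for pathways, those with the highest share of higher genes were metallothioneins, immediate early genes, and IL-6 and STAT3 signalling, while junction genes and liver transcription factors had the highest shares of lower genes. Respiratory chain (37 genes), proteasome (36 genes), ER chaperone (18 genes) and cytosolic ribosomal protein genes (16 genes) had 0 members past the threshold in either direction. Over all genes 8.4% passed, and 0 of 16 or 18 genes lies near that share.

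**Figure D2:**
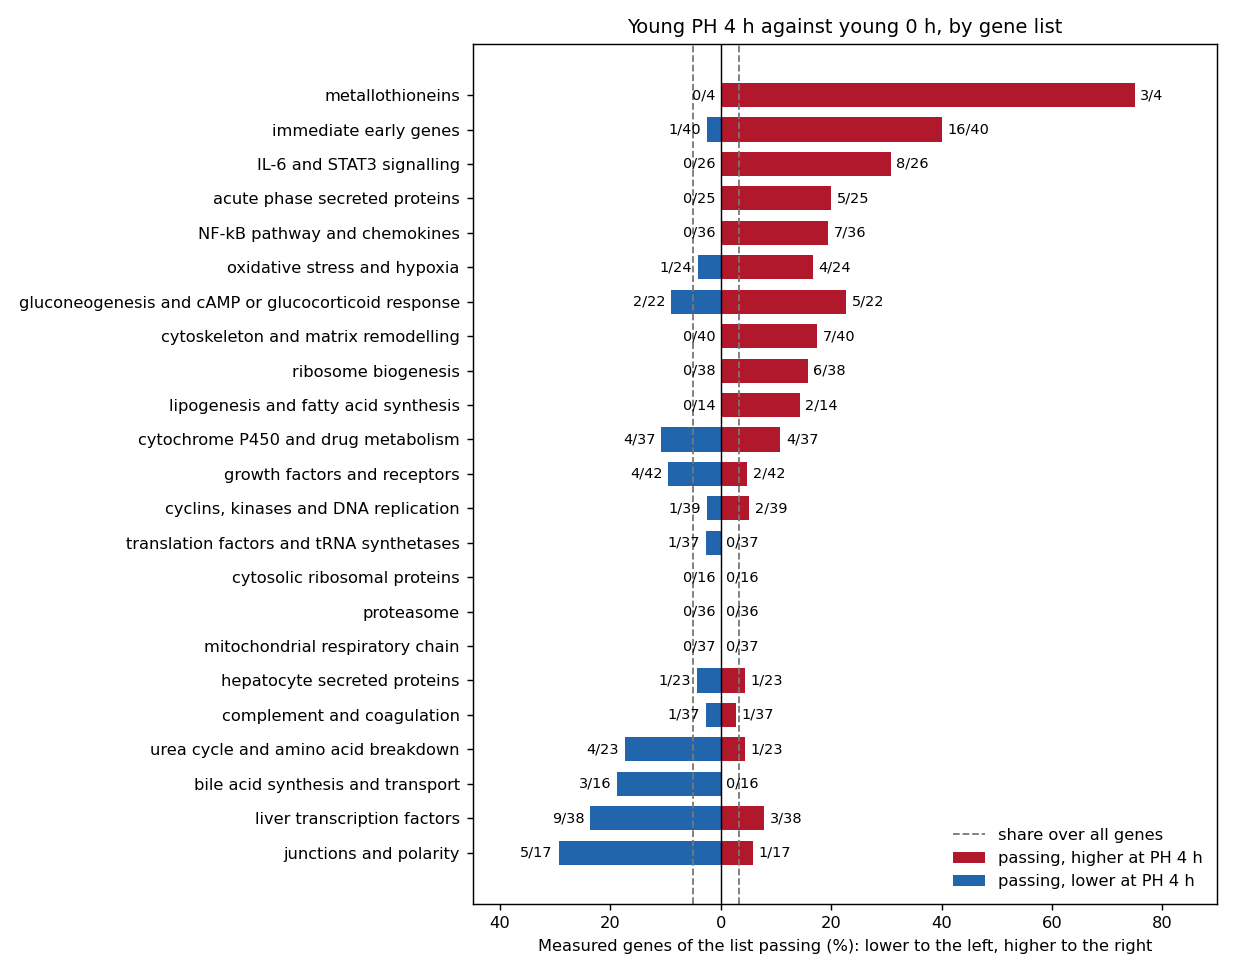
Share of the measured genes of each list (percent, horizontal axis) that passed the threshold at young PH 4 h against young 0 h, higher to the right in red and lower to the left in blue, with the number passing and the number measured beside each bar; dashed lines mark the shares over all genes, 3.28% higher and 5.11% lower. Metallothioneins reach 75% higher and junction genes 29.4% lower.

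Metallothioneins, small proteins that bind zinc and copper, had 3 of 4 measured genes higher, with a median difference over the list of 2.73. Mt2 read 13.35, 13.41 and 13.44 at PH 4 h, against 7.79, 7.70 and 8.35 at 0 h. The PH arrays lay within 0.1 unit of each other, near the top of the array's range. The difference was 5.45 ± 0.78, a 43.8-fold change (adjusted p = 1.54e-05). Mt1 read 13.18, 13.15 and 13.23 at PH 4 h, against 7.75, 7.81 and 8.82 at 0 h, where replicate 3 was the highest. Its difference of 5.06 ± 0.84 (adjusted p = 0.000143) became 5.41 without that replicate. Mt3, a form best known from the brain, differed by only 0.40 ± 0.11 (adjusted p = 0.0222) and passed in 3 of 6 fits that each left out 1 array, losing its call without 0 h replicate 2 (0.40, adjusted p = 0.0593), 0 h replicate 3 (0.37, 0.0773) or PH replicate 1 (0.32, 0.144). It also lost its call with only the compared groups fitted (adjusted p = 0.0594), with sham arrays left out (adjusted p = 0.0568) and with the spike-in covariate (0.36, adjusted p = 0.0571).

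Because Mt1 and Mt2 lie next to each other on chromosome 8 and moved together, the 250 bases before their annotated start sites are shown, with matches to the metal response element core (TGCACNC or TGCGCNC, searched on both strands) in capitals. The sequences come from RefSeq on build GRCm38.p6 and run 5′ to 3′ on the gene's strand.
Mt1, chr8:94178839-94179088, plus strand: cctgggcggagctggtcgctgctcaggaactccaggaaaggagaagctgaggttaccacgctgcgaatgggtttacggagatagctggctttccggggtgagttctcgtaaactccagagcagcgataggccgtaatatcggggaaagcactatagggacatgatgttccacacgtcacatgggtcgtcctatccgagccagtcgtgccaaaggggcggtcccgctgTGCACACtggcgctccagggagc
Mt2, chr8:94172368-94172617, plus strand: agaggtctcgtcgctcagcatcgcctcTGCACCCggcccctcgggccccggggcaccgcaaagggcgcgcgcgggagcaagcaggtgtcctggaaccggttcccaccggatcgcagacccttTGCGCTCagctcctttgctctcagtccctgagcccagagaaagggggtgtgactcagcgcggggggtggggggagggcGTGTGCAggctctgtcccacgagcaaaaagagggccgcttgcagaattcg
Mt1 held 1 match, from -23 to -17 relative to the start site, and Mt2 held 3, from -223 to -217, from -128 to -122 and from -50 to -44. This core occurs in 21.4% of 32851 RefSeq promoter windows of the same length. Mt2 also held an AP-1 match (TGACTCA or TGAGTCA) from -79 to -73, a motif found in 4.46% of the windows, and Mt1 held none. A match says only that the letters are there. The counts cover only the bases shown, and which bases are shown depends on the annotated start site. Whether liver uses other start sites of these genes was not tested. The counts therefore do not show that Mt1 has fewer matches than Mt2 outside these windows, or that it lacks an AP-1 match there.

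Acute phase proteins, which hepatocytes release into the blood after injury, had 5 of 25 measured genes higher and 0 lower, with a median difference of 0.56. Saa2, a serum amyloid A apolipoprotein, read 12.59, 13.02 and 12.98 at PH 4 h, against 7.63, 7.74 and 8.04 at 0 h. The lowest PH array stood more than 4 units above the highest 0 h array. The difference was 5.06 ± 1.07 (adjusted p = 0.00218), and its other probe set gave 3.38 ± 0.88 (adjusted p = 0.013). Saa genes are near-identical in sequence, so probes for Saa2 can also bind the transcripts of its relatives. Serpina3n, a secreted protease inhibitor, read 12.41, 12.86 and 13 at PH 4 h, against 10.83, 10.69 and 10.84 at 0 h. Its difference was 1.97 ± 0.28 (adjusted p = 1.02e-05). Lrg1, a leucine-rich glycoprotein of plasma, rose by 1.38 ± 0.36 (adjusted p = 0.0136). That call was lost without PH replicate 3 (1.29, adjusted p = 0.0523). Several acute phase genes did not pass. Hpx, the haem carrier haemopexin, differed by 0.56 ± 0.24 (adjusted p = 0.157), the fibrinogen chain gene Fgg by 0.28 ± 0.21 (adjusted p = 0.5), and Hamp, the iron hormone hepcidin, by 0.55 ± 0.74 (adjusted p = 0.76). Hpx passed with only the compared groups fitted (adjusted p = 0.04) and with young arrays only (adjusted p = 0.0428). The list had 3 genes higher without PH replicate 3, 4 without any other single array, and 15 higher and 1 lower when the compared groups alone were fitted.

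Genes of interleukin 6 and STAT3 signalling had 8 of 26 measured members higher and 0 lower, with a median difference of 0.26. Stat3, the transcription factor itself, read 9.11, 9.43 and 9.58 at PH 4 h, against 8.68, 8.64 and 8.52 at 0 h. The groups did not overlap, and the difference was 0.76 ± 0.16 (adjusted p = 0.00253). Socs3, its feedback inhibitor, read 8.20, 8.26 and 8.35 at PH 4 h, against 6.68, 6.40 and 6.40 at 0 h. Socs3 rose by 1.78 ± 0.31 (adjusted p = 0.00022). The transcription factor genes Cebpb and Cebpd, which act on acute phase promoters, were 1.72 ± 0.26 (adjusted p = 3.39e-05) and 1.84 ± 0.40 (adjusted p = 0.00293) higher. Ptpn1, a phosphatase that acts on insulin and cytokine receptor signalling, was 1.32 ± 0.28 higher (adjusted p = 0.00212). Ptpn2, a related phosphatase, read 7.48, 6.87 and 7.10 at PH 4 h, against 5.28, 5.45 and 5.33 at 0 h, a difference of 1.80 ± 0.23 (adjusted p = 3.06e-06). Each of these 6 genes kept its call in all 6 fits without 1 array.

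Genes of the NF-kB pathway and chemokines had 7 of 36 measured members higher and 0 lower, with a median difference of 0.21. Cxcl1, a chemokine that attracts neutrophils, read 11.51, 11.29 and 11.45 at PH 4 h, against 7.71, 7.13 and 6.39 at 0 h. The PH arrays were close together while the 0 h arrays spread over more than 1 unit. The difference was 4.34 ± 0.55, a 20.2-fold change (adjusted p = 2.23e-06), and its other probe set gave 4.47 ± 0.56 (adjusted p = 1.78e-06). The tumour necrosis factor receptor genes Tnfrsf1a and Tnfrsf1b rose by 1.06 ± 0.21 (adjusted p = 0.00114) and 1.23 ± 0.20 (adjusted p = 8.23e-05). Bcl3, a nuclear partner of NF-kB subunits, rose by 0.96 ± 0.19 (adjusted p = 0.00133), and the cytokine gene Il1a by 0.67 ± 0.14 (adjusted p = 0.00143). Nfkbia, the inhibitor of NF-kB that NF-kB itself induces, was higher by 1 of its 2 probe sets, with a difference of 0.99 ± 0.27 (adjusted p = 0.0161). Its call was lost without 0 h replicate 1 (0.80, adjusted p = 0.116) or PH replicate 1 (0.72, adjusted p = 0.158). Rela, the main activating subunit, differed by 0.17 ± 0.10 (adjusted p = 0.337).

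The promoters of Lcn2, Saa2 and Cxcl1, the most strongly changed genes of these lists, are shown as the 250 bases before the start site from RefSeq on GRCm38.p6. Capitals mark matches, on either strand, to a C/EBP core (TTNNGNAA) for Lcn2 and Saa2 and to an NF-kB site for Cxcl1.
Lcn2, chr2:32387740-32387989, minus strand: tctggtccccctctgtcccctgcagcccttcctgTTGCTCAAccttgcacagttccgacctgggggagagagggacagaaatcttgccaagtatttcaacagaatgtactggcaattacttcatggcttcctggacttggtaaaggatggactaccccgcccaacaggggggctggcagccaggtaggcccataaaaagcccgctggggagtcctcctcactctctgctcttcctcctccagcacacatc
Saa2, chr7:46751583-46751832, plus strand: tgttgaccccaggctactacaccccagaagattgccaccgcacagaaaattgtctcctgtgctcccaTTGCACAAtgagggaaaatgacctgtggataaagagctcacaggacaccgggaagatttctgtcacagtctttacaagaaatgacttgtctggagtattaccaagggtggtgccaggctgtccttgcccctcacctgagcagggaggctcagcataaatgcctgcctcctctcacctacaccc
Cxcl1, chr5:90890995-90891244, plus strand: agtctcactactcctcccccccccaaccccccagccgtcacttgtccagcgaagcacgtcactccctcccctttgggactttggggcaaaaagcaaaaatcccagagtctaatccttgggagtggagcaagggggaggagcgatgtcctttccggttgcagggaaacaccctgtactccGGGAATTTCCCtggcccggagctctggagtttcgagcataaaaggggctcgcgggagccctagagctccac
Lcn2 held its C/EBP match from -216 to -209 and Saa2 from -183 to -176, a core found in 36.8% of the promoter windows. Cxcl1 held 2 overlapping NF-kB matches from -71 to -61, a motif found in 7.25% of the windows. Neither Lcn2 nor Saa2 had an NF-kB match in this window, from which nothing follows about the factor.

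Immediate early genes, which respond within minutes to growth factors and stress, had 16 of 40 measured members higher and 1 lower 4 h after PH, with a median difference of 0.81. Klf6, a zinc finger transcription factor, read 8.36, 7.21 and 7.29 at PH 4 h, against 5.97, 5.86 and 5.79 at 0 h, a difference of 1.75 ± 0.28 (adjusted p = 6.67e-05). Btg2, which restrains proliferation, read 11.38, 9.98 and 9.85 at PH 4 h, against 8.49, 8.68 and 8.84 at 0 h, a difference of 1.74 ± 0.34 (adjusted p = 0.00096). In both genes PH replicate 1 was more than 1 unit above the other PH arrays. Gadd45a, a stress-induced growth arrest gene, rose by 1.75 ± 0.37 (adjusted p = 0.00219), Rcan1, an inhibitor of the phosphatase calcineurin, by 2.16 ± 0.26 (adjusted p = 7.56e-07) and Junb, an AP-1 subunit, by 1.33 ± 0.19 (adjusted p = 1.18e-05).

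Several members of the list depended on PH replicate 1. Atf3, a stress-induced transcription factor, read 9.69, 8.07 and 7.62 at PH 4 h, against 6.17, 6.25 and 6.10 at 0 h. Its difference of 2.29 ± 0.55 (adjusted p = 0.00641) became 1.67 (adjusted p = 0.091) without that array. Other probe sets of Atf3 gave 1.28 ± 0.31 (adjusted p = 0.00729) and 0.05 ± 0.17 (adjusted p = 0.919). Dusp6, a phosphatase that switches off ERK, read 10.44, 8.36 and 9.06 at PH 4 h, against 6.99, 7.88 and 7.88 at 0 h. Its difference of 1.70 ± 0.40 (adjusted p = 0.0054) became 1.13 (adjusted p = 0.0984) without PH replicate 1 and 1.41 (adjusted p = 0.057) without 0 h replicate 1, and lost its call with only the compared groups fitted (adjusted p = 0.0523). The dim second Dusp6 probe set gave 0.51 ± 0.19 (adjusted p = 0.0968). Fos, the AP-1 subunit, read 7.72, 5.90 and 6.20 at PH 4 h, against 4.35, 4.36 and 3.56 at 0 h. The groups did not overlap, yet the difference of 2.51 ± 0.92 did not pass over the whole series (adjusted p = 0.091), while it passed with only the compared groups fitted (adjusted p = 0.00594), with young arrays only (adjusted p = 0.00285) and with the spike-in covariate (3.43, adjusted p = 0.00755). Myc differed by 0.79 ± 0.38 (adjusted p = 0.219) with overlapping groups, and Jun by 0.57 ± 0.22 (adjusted p = 0.12). Jun passed with only the compared groups fitted (adjusted p = 0.00989), with young arrays only (adjusted p = 0.0322) and with the spike-in covariate (0.74, adjusted p = 0.0339). Without PH replicate 1, the list had 8 genes higher and 0 lower.

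Cdkn1a, which encodes the cell cycle inhibitor p21, read 9.15, 9.49 and 9.55 at PH 4 h, against 8.43, 8.30 and 8.28 at 0 h. The 3 PH arrays were all above the 0 h arrays, by 1.06 ± 0.11 (adjusted p = 6.04e-08), and its other probe set gave 1.80 ± 0.27 (adjusted p = 2.73e-05). Of 39 genes for cyclins, their kinases and DNA replication, 2 were higher (5.13%) and 1 lower (2.56%), against 3.28% and 5.11% of all genes. Ccnd1, the cyclin D1 gene whose rise marks passage through G1, read 7.09, 6.91 and 6.99 at PH 4 h, against 6.84, 6.72 and 6.98 at 0 h. These groups overlapped, with a difference of 0.15 ± 0.18 (adjusted p = 0.721). Gmnn, which blocks the licensing of replication origins, fell by 0.56 (SE 0.14, adjusted p = 0.00927). Without 0 h replicate 3 it fell by 0.47 (adjusted p = 0.0629).

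Among 38 ribosome biogenesis genes, 6 were higher and 0 lower, with a median difference of 0.18. Gnl2, a nucleolar GTPase, read 6.52, 6.44 and 6.51 at PH 4 h, against 5.98, 5.89 and 5.89 at 0 h, a difference of 0.57 ± 0.14 (adjusted p = 0.00674). Ddx10, an RNA helicase gene of the list, differed by 0.41 ± 0.09 (adjusted p = 0.00214). In fits without 1 array, the number higher ran from 2, without 0 h replicate 2, to 7, without PH replicate 1, and was 3 without 0 h replicate 1 or PH replicate 3. It was 2 when only the compared groups were fitted, a fit in which Ddx10 lost its call (adjusted p = 0.0661), and 8 with 1 lower when only young arrays were fitted. The 16 cytosolic ribosomal protein genes had a median difference of 0.02.

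Genes of hormone and fuel control moved in both directions. Igfbp1, an insulin-repressed hepatocyte gene whose product binds insulin-like growth factors, read 11.83, 11.73 and 11.76 at PH 4 h, against 6.41, 8.39 and 7.28 at 0 h. The PH arrays agreed within 0.1 unit and the 0 h arrays spread over about 2 units. The difference was 4.41 ± 0.57, a 21.3-fold change (adjusted p = 3.06e-06), and its dim second probe set gave 0.25 ± 0.12 (adjusted p = 0.249). Igfals, which stabilises these growth factors in blood, read 8.68, 8.50 and 8.80 at PH 4 h, against 9.53, 9.70 and 9.71 at 0 h, and fell by 0.99 (SE 0.19, adjusted p = 0.000959). Its dim second probe set gave -0.04 ± 0.13 (adjusted p = 0.91). Inhbc, an activin chain gene of liver, fell by 0.52 (SE 0.12, adjusted p = 0.00377), and Erbb3, a receptor for neuregulins, fell by 1.76 (SE 0.31, adjusted p = 0.000298) by 1 of its 2 probe sets. Hgf, the hepatocyte growth factor, read close to the bottom of the array's range, between 2.84 and 3.31 on all 6 arrays.

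Of 22 genes of gluconeogenesis and the cAMP or glucocorticoid response, 5 were higher and 2 lower. Sgk1, a kinase induced by glucocorticoids, rose by 1.41 ± 0.30 (adjusted p = 0.0021), Crem, whose products include a cAMP-induced repressor, by 1.39 ± 0.17 (adjusted p = 7.63e-07) and Tat, a tyrosine-degrading enzyme, by 0.93 ± 0.20 (adjusted p = 0.00221). Both enzymes of glucose output themselves stood near their 0 h values. G6pc, the glucose-6-phosphatase, read 9.90, 11.02 and 11 at PH 4 h, against 10.21, 10.57 and 10.80 at 0 h, a difference of 0.11 ± 0.30 (adjusted p = 0.895). Pck1, which makes phosphoenolpyruvate from oxaloacetate, differed by -0.04 ± 0.20 (adjusted p = 0.946). Both differences changed sign without some of the arrays. The list had 0 genes lower without 0 h replicate 1, 0 h replicate 2 or PH replicate 1, and 1 lower without PH replicate 3.

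In lipid synthesis, 2 of 14 fatty acid synthesis genes were higher and 0 lower. Thrsp, a thyroid hormone-responsive gene of lipogenic tissue, read 11.42, 10.82 and 11.25 at PH 4 h, against 8.36, 8.29 and 10.01 at 0 h. The difference of 2.28 ± 0.39 (adjusted p = 0.000184) became 2.85 without 0 h replicate 3, the highest of its group. Elovl6, a fatty acid elongase, was higher by 1 of its 2 probe sets, with a difference of 0.85 ± 0.22 (adjusted p = 0.013). Of 14 cholesterol genes only Sc5d, a late enzyme of cholesterol synthesis, passed, and it fell by 1.31 (SE 0.27, adjusted p = 0.00178).

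Liver transcription factors had 9 of 38 measured genes lower and 3 higher, with a median difference of -0.12. Foxa1, a pioneer factor that opens hepatocyte enhancers, read 5.25, 5.15 and 5.38 at PH 4 h, against 8.29, 8.05 and 6.26 at 0 h. All PH arrays lay below the 0 h arrays, of which replicate 3 was more than 1 unit below the others. Foxa1 fell by 2.27 (SE 0.36, adjusted p = 7.77e-05), and without that replicate by 2.91. Foxa2, its relative, read 7.24, 7.69 and 7.44 at PH 4 h, against 8.83, 8.86 and 8.29 at 0 h, and fell by 1.2 (SE 0.16, adjusted p = 6.81e-06). Hhex, a homeobox gene needed for liver formation, read 6.98, 6.45 and 5.84 at PH 4 h, against 9, 8.79 and 7.89 at 0 h. It fell by 2.13 (SE 0.31, adjusted p = 1.86e-05), and without 0 h replicate 3 by 2.47. Cebpa, which holds hepatocytes in the resting, differentiated state, read 10.16, 10.53 and 10.16 at PH 4 h, against 11.08, 11.39 and 11.60 at 0 h. Cebpa fell by 1.07 (SE 0.20, adjusted p = 0.00055), whereas its relatives Cebpb and Cebpd rose.

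Further down the same list, Cited2, a coactivator that competes for CBP and p300, fell by 1.78 (SE 0.32, adjusted p = 0.000421), and without 0 h replicate 3 by 2.20. Nr1h3, the oxysterol receptor LXR alpha, read 7.78, 7.85 and 7.74 at PH 4 h, against 8.23, 8.34 and 8.49 at 0 h, and fell by 0.56 (SE 0.10, adjusted p = 0.000228). Zbtb20, a repressor of alpha-fetoprotein in adult liver, went the other way: it read 7.80, 7.11 and 7.52 at PH 4 h, against 6.46, 6.51 and 6.04 at 0 h, a difference of 1.14 ± 0.16 (adjusted p = 1.05e-05). Hnf4a, a central hepatocyte regulator, did not pass, with a difference of 0.28 ± 0.19 (adjusted p = 0.46) and overlapping groups. Over the fits without 1 array the list had 8 to 10 genes lower and 3 to 4 higher.

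Junction and polarity genes had 5 of 17 measured members lower and 1 higher, with a median difference of -0.25. Cldn3, a tight junction claudin, read 5.94, 6.33 and 6.01 at PH 4 h, against 7.72, 7.76 and 7.70 at 0 h. The 0 h arrays agreed within 0.1 unit, and the gene fell by 1.63 (SE 0.18, adjusted p = 1.13e-07), while its dimmer probe set gave -0.30 ± 0.11 (adjusted p = 0.0837). Cldn1, another claudin, read 4.13, 4.41 and 4.73 at PH 4 h, against 6.55, 6.67 and 4.84 at 0 h. It fell by 1.60 (SE 0.36, adjusted p = 0.00428). The difference was -1.27 without 0 h replicate 2 (adjusted p = 0.0537) and -2.19 without 0 h replicate 3. Cdh2, the N-cadherin of hepatocyte adherens junctions, fell by 1.43 (SE 0.20, adjusted p = 9.69e-06) and Dsp, the desmosomal plaque protein desmoplakin, by 0.99 (SE 0.18, adjusted p = 0.000451). The dim second Dsp probe set gave 0.28 ± 0.12 (adjusted p = 0.186). Gjb2, the gap junction protein connexin 26, was the member that was higher, at 11.62, 11.08 and 11.14 at PH 4 h, against 10.48, 10.71 and 10.44 at 0 h. Its difference of 0.74 ± 0.18 (adjusted p = 0.0067) became 0.57 (adjusted p = 0.0829) without PH replicate 1. The number of lower genes was 3 without 0 h replicate 2 and 4 without PH replicate 1.

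Cytoskeleton and matrix genes had 7 of 40 measured members higher and 0 lower, with a median difference of 0.09. Actg1, cytoplasmic gamma-actin, read 12.61, 11.25 and 11.89 at PH 4 h, against 9.34, 9.39 and 9.5 at 0 h. Every PH array was more than 1 unit above every 0 h array, with a difference of 2.51 ± 0.40 (adjusted p = 7.41e-05). Actb, beta-actin, read 8.90, 9.08 and 8.20 at PH 4 h, against 8.94, 9.86 and 8.84 at 0 h, a difference of -0.49 ± 0.51 (adjusted p = 0.667). With the spike-in covariate Actb was at -1.19 and passed as lower (adjusted p = 0.0343). Tpm4, a tropomyosin, rose by 1.31 ± 0.18 (adjusted p = 8.41e-06). Krt18, a keratin of the hepatocyte's intermediate filaments, was higher by 1 of its 2 probe sets, with a difference of 1.51 ± 0.30 (adjusted p = 0.0013). Its filament partner Krt8 read 11.49, 9.77 and 10.48 at PH 4 h, against 9.34, 9.49 and 9.20 at 0 h. The difference of 1.24 ± 0.31 (adjusted p = 0.00989) became 0.78 (adjusted p = 0.153) without PH replicate 1, and did not pass with only the compared groups fitted (adjusted p = 0.0614). The list's count was 3 without PH replicate 1 and 4 without PH replicate 3.

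The promoter of Actg1 is shown because its transcript stood so far above that of 0 h; capitals mark a CArG box, the site of serum response factor, on the same RefSeq build and over the same 250 bases.
Actg1, chr11:120348496-120348745, minus strand: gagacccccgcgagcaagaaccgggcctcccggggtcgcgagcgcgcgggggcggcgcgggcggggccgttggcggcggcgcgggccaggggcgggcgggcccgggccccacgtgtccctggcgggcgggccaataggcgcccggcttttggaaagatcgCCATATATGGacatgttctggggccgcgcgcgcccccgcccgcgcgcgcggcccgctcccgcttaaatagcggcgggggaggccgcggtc
The match ran from -90 to -81, and this motif occurs in 1.47% of the promoter windows.

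Genes of oxidative stress and hypoxia had 4 of 24 measured members higher and 1 lower. Hmox1, haem oxygenase 1, read 10.93, 10.31 and 10.10 at PH 4 h, against 9.09, 8.95 and 8.95 at 0 h, a difference of 1.45 ± 0.29 (adjusted p = 0.00135). Txnrd1, thioredoxin reductase, rose by 0.84 ± 0.18 (adjusted p = 0.00221) and Hif1a, the hypoxia-regulated transcription factor, by 0.75 ± 0.18 (adjusted p = 0.0078). Cat, the peroxisomal enzyme catalase, fell by 0.70 (SE 0.15, adjusted p = 0.00313) by 1 of its 2 probe sets. Ddit4, an inhibitor of mTOR complex 1, was split among the PH arrays: replicate 1 read 5.75, below all 0 h arrays, and replicates 2 and 3 read 9.02 and 9.20, against 5.96, 5.98 and 6.68 at 0 h. Its difference of 1.79 ± 0.52 (adjusted p = 0.0276) was 2.91 without PH replicate 1 and lost its call without PH replicate 2 (1.27, adjusted p = 0.185), PH replicate 3 (1.18, 0.21), 0 h replicate 1 (1.66, 0.101) or 0 h replicate 2 (1.67, 0.0972). The call was also lost with only the compared groups fitted (adjusted p = 0.216), with sham arrays left out (adjusted p = 0.0562) and with the spike-in covariate (1.70, adjusted p = 0.0588).

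Bile acid synthesis and transport had 3 of 16 measured genes lower and 0 higher, with a median difference of -0.35. Hsd3b7, an enzyme of bile acid synthesis, read 10.16, 10.57 and 10.65 at PH 4 h, against 11.22, 11 and 11.35 at 0 h, and fell by 0.73 (SE 0.16, adjusted p = 0.00329). Cyp7a1, the rate-limiting enzyme, read 5.70, 5.65 and 5.41 at PH 4 h, against 6.58, 7.26 and 6.52 at 0 h. These groups did not overlap, but the difference of -1.2 ± 0.44 did not pass (adjusted p = 0.0968), while it passed with only the compared groups fitted (adjusted p = 0.00461) and with young arrays only (adjusted p = 0.021). Cytochrome P450 and drug metabolism genes had 4 of 37 members higher and 4 lower. They had 1 higher and 0 lower without 0 h replicate 2, and 2 higher without any other single array, with 1 lower without 0 h replicate 1 or PH replicate 2 and 2 lower without PH replicate 1. Cyp2b10, the target gene of the xenobiotic receptor CAR, read 9.29, 10.58 and 10.58 at PH 4 h, against 8, 7.84 and 8.50 at 0 h, a difference of 2.03 ± 0.29 (adjusted p = 1.29e-05). Urea cycle and amino acid breakdown genes had 4 of 23 members lower and 1 higher. They had 0 lower without 0 h replicate 3 or PH replicate 1, and 1 lower without 0 h replicate 1, 0 h replicate 2 or PH replicate 2. Alb, the albumin gene, differed by -0.03 ± 0.09 (adjusted p = 0.897).

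Other genes with large differences fall outside these lists. Mrap, an accessory protein of the adrenocorticotropin receptor, read 10.97, 9.91 and 10.79 at PH 4 h, against 7.82, 8.02 and 7.90 at 0 h. The difference of 2.64 ± 0.22 had the smallest adjusted p of the genes described here (1.82e-09). C9orf72, a gene of membrane trafficking and autophagy, rose by 2.48 ± 0.23 (adjusted p = 6.27e-09), and Tiparp, a dioxin-inducible ADP-ribosyltransferase, by 2.29 ± 0.26 (adjusted p = 2.41e-07). Nnmt, which methylates nicotinamide, rose by 2.04 ± 0.30 (adjusted p = 2.25e-05). Sat1, the polyamine-catabolic acetyltransferase, rose by 1.2 ± 0.23 (adjusted p = 0.000765), and Slc38a2, an amino acid transporter, was higher by 1 of its 4 probe sets, with a difference of 1.48 ± 0.29 (adjusted p = 0.000866). Among lower genes, Fbxo21, an F-box protein of ubiquitin ligases, fell by 1.83 (SE 0.30, adjusted p = 8.85e-05), Nde1, a centrosome protein, by 1.51 (SE 0.17, adjusted p = 1.81e-07), and Cxxc5, a CXXC zinc finger protein, by 1.54 (SE 0.22, adjusted p = 1.28e-05).

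The tissue is whole liver, in which fewer cells of a type and less RNA per cell cannot be told apart. Neutrophil markers had 0 of 17 measured genes past the threshold, and their mean level was 5.59 to 5.84 on the PH 4 h arrays, against 5.40 to 5.57 on the 0 h arrays (difference 0.22, exact permutation p = 0.1, the smallest that 3 against 3 arrays allow, adjusted p = 0.54 over 18 array measures). Macrophage and Kupffer cell markers had 0 of 16 past the threshold, with means of 6.68 to 6.88 at PH 4 h, against 6.59 to 6.79 at 0 h. Endothelial markers had 2 of 15 higher (13.3%, against 3.28% of all genes) and 0 lower. Their median difference was 0.03, and 8 of the 15 differences were above 0. One of the 2 passing genes was Nos3, endothelial nitric oxide synthase, which rose by 0.49 ± 0.11 (adjusted p = 0.0057). Stellate cell and fibroblast markers had 2 of 14 higher (14.3%), among them the basement membrane collagen gene Col4a1, which rose by 1.2 ± 0.24 (adjusted p = 0.00133). Their median difference was 0.07, with 9 of the 14 above 0. Hepatocyte markers had 1 of 12 higher (8.33%), with means of 11.62 to 11.79 at PH 4 h, against 11.54 to 11.69 at 0 h. Their median difference was -0.03, with 3 of the 12 above 0. The part of cell composition in the gene differences was not tested.

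Against 2 h after PH, the values of 4 h were compared to find genes that differed between these hours. In limma 412 of 12422 probe sets passed, 3.32%, with 211 higher (1.7%) and 201 lower (1.62%) at 4 h than at 2 h. Counted against 0 h, 5 probe sets passed at 0.5 h (0.0403%), 71 at 1 h (0.572%), 496 at 2 h (3.99%) and 952 at 4 h, and these contrasts share the 0 h arrays. The count of 412 rests heavily on single arrays: it was 123 without PH 2 h replicate 1, 88 without PH 2 h replicate 2, 243 without PH 4 h replicate 1 and 161 without PH 4 h replicate 2. Counted as genes, 285 passed (3.45%), 117 higher (1.42%) and 168 lower (2.04%). Immediate early genes had 1 of 40 members higher and 4 lower (median -0.47), junction genes 0 of 17 higher and 2 lower (median -0.06), acute phase genes 2 of 25 higher and 0 lower (median 0.55), and the median over all genes was 0.02. With the spike-in mean, which did not overlap between the groups, as a covariate, 34 passed.

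Mrap read 10.97, 9.91 and 10.79 at 4 h, against 8.69, 9.29 and 8.96 at 2 h, a difference of 1.58 ± 0.22 (adjusted p = 0.000186). Cdkn1a rose by 0.80 ± 0.11 (adjusted p = 0.000145) and Ptpn2 by 1.2 ± 0.23 (adjusted p = 0.00345) between the groups. G6pc read 9.90, 11.02 and 11 at 4 h, against 12.62, 12.37 and 12.35 at 2 h. The enzyme's transcript fell by 1.81 (SE 0.30, adjusted p = 0.000784), which places it back among its 0 h values. Cldn3 fell by 1.43 (SE 0.18, adjusted p = 3.1e-05) and Nde1 by 1.13 (SE 0.17, adjusted p = 0.000316), and against 0 h Cldn3 had not passed at 2 h (-0.21 ± 0.18, adjusted p = 0.59). Igfals fell by 1.05 (SE 0.19, adjusted p = 0.00207) and Nr1h3 by 0.53 (SE 0.10, adjusted p = 0.00207). With the spike-in covariate G6pc (-1.35, adjusted p = 0.0831), Igfals (-0.93, adjusted p = 0.0831) and Ptpn2 (1.02, adjusted p = 0.127) no longer passed, while the other 5 genes of this paragraph did.

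Acute phase and metallothionein genes are set out over the hours in the same way. Lcn2 read 10.57, 10.92 and 11.40 at 4 h, against 6.95, 6.29 and 7.24 at 2 h. The difference of 4.14 ± 1.16 passed narrowly (adjusted p = 0.0433) and in 0 of 6 fits without 1 array, where it ran from 3.86 to 4.34 with adjusted p from 0.0588 to 0.164. It did not pass with sham arrays left out (adjusted p = 0.0669), with the trend and robust settings (adjusted p = 0.0618) or with the spike-in covariate (3.06, adjusted p = 0.414). Serpina3n differed by 1.19 ± 0.28 (adjusted p = 0.0159) and passed in 2 of 6 such fits, whose lowest and highest values were 1.07 and 1.36, and not with the spike-in covariate (1.06, adjusted p = 0.211). Mt2 averaged 7.95 ± 0.35 at 0 h, 9.36 ± 0.71 at 0.5 h, 12.10 ± 0.65 at 1 h, 12.75 ± 0.06 at 2 h and 13.40 ± 0.05 at 4 h (SD, n = 3 each). Between 4 and 2 h it differed by 0.65 ± 0.78 (adjusted p = 0.701), and this passed with only the compared groups fitted (adjusted p = 0.0122). Igfbp1 had a mean of 11.39 ± 0.15 at 1 h, 11.57 ± 0.31 at 2 h and 11.77 ± 0.05 at 4 h (SD, n = 3 each). Fos averaged 9.53 ± 0.45 at 1 h, 8.23 ± 0.69 at 2 h and 6.61 ± 0.98 at 4 h (SD, n = 3 each), with a difference of -1.63 ± 0.92 between 4 and 2 h (adjusted p = 0.345). Atf3 differed by -1.59 ± 0.55 (adjusted p = 0.0977) and passed without PH 4 h replicate 1 (-2.20, adjusted p = 0.0348), with young arrays only (-1.59, adjusted p = 0.0107) and with array weights (-1.91, adjusted p = 0.0244).

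**Figure D3:**
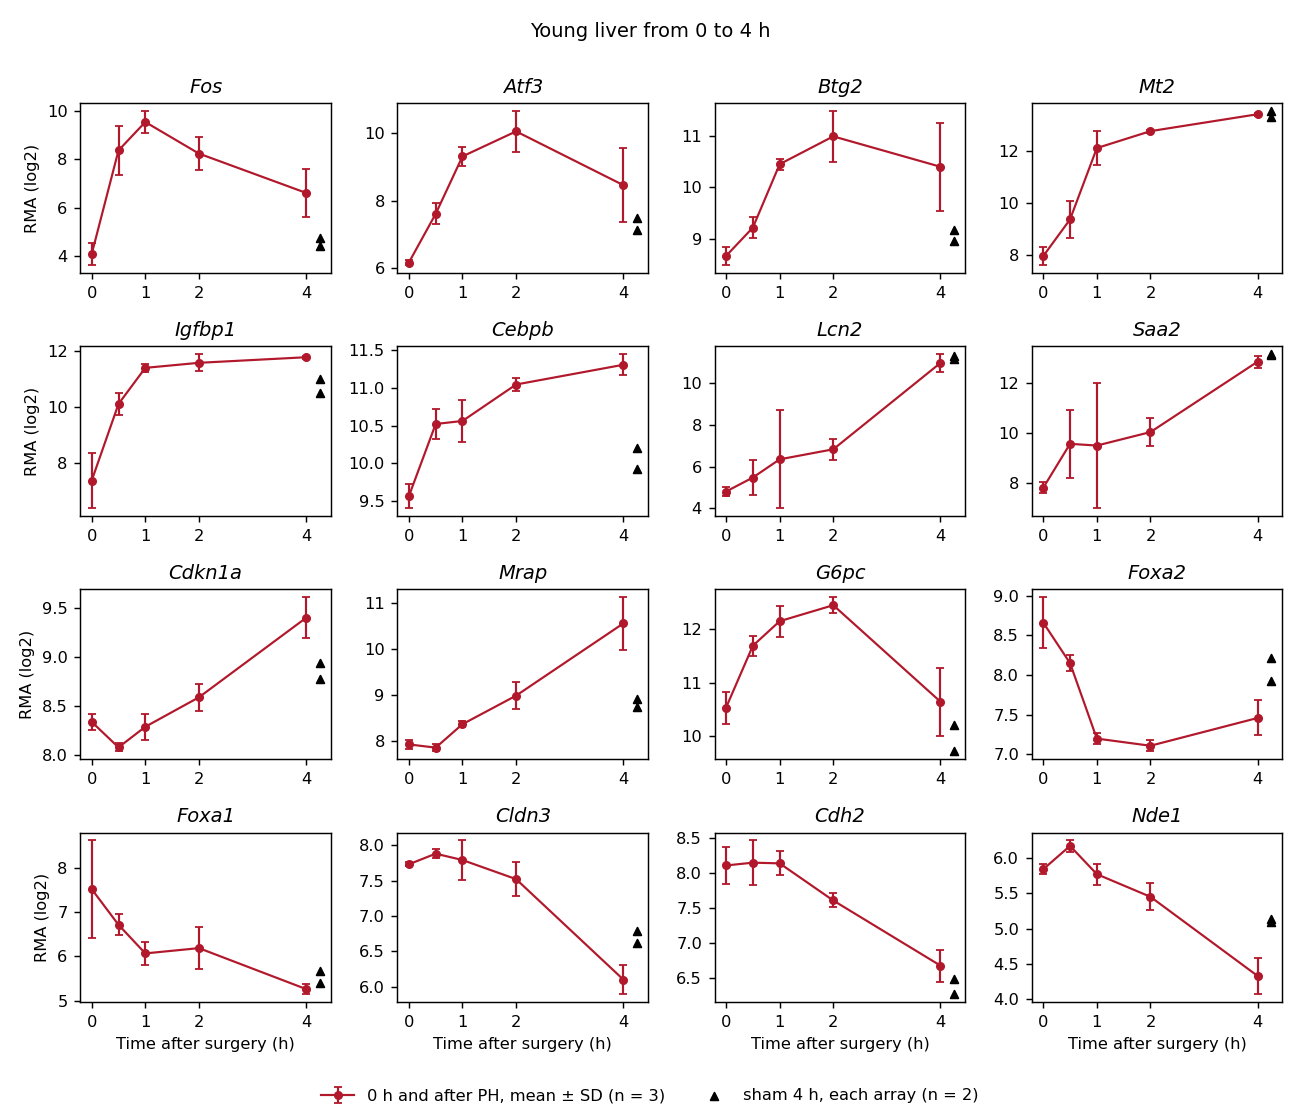
RMA expression (log2) of 16 genes in young liver at 0 h and 0.5, 1, 2 and 4 h after PH (points, mean ± SD of 3 arrays, joined by lines), with the 2 young sham 4 h arrays as triangles beside the 4 h point; each panel has its own vertical scale. Fos is highest at 1 h and Atf3 and Btg2 at 2 h, Lcn2, Saa2 and Mrap are highest at 4 h, G6pc returns at 4 h to about its 0 h level, and Foxa2 is lowest at 2 h and Cldn3 and Nde1 at 4 h.

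The steps of the sham operation are not described in the labels. On the leading principal component the 16 sham arrays of the series, from 0.5 h on, ran from 7.7 to 30.3 and the 30 arrays without sham surgery from -34.1 to 6.3, and both young sham 4 h arrays lay at 16.5 or above. Differences between PH and sham therefore hold the loss of liver mass together with whatever else sets the sham arrays apart, and these cannot be told apart here. In limma 603 of 12422 probe sets passed, 4.85%, with 307 higher (2.47%) and 296 lower (2.38%) after PH than after sham surgery. Only 2 sham arrays exist at this hour, and the count was 103 without sham replicate 2, 281 without sham replicate 1 and 313 without PH replicate 3. Counted as genes, 381 passed (4.62%), 209 higher (2.53%) and 172 lower (2.08%). Immediate early genes had 5 of 40 members higher and 0 lower (median 0.55), fatty acid synthesis genes 3 of 14 higher and 0 lower (median 0.19), metallothionein and junction genes 0 in either direction, and the median over all genes was -0.007. The lone sham array in a fit without the other is assumed to vary like the other groups. Against 0 h, sham 4 h gave 1339 passing probe sets (10.8%), a contrast that shares the 0 h arrays with the PH contrast.

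No difference between PH and sham surgery passed over the whole series for the genes more than 4 log2 units above 0 h. Among the next highest, Mrap, Actg1, C9orf72 and Tiparp did pass, as given below. Lcn2 read 10.57, 10.92 and 11.40 after PH, against 11.16 and 11.29 after sham surgery, a difference of -0.26 ± 1.3 (adjusted p = 0.941). Mt2 differed by -0.01 ± 0.88 (adjusted p = 0.995), Mt1 by -0.36 ± 0.94 (adjusted p = 0.878) and Saa2 by -0.28 ± 1.2 (adjusted p = 0.929). The standard errors of these 4 genes, which rest on the spread over all 18 groups, are near or above 1 unit. This fit could therefore miss a difference of that size between the operations. Mt1 and Mt2 also read near the top of the array's range after PH, where a difference can be hidden. Serpina3n, with a smaller error, differed by 0.02 ± 0.31 (adjusted p = 0.981), Stat3 by 0.03 ± 0.18 (adjusted p = 0.948), Cdh2 by 0.30 ± 0.22 (adjusted p = 0.484) and Foxa1 by -0.28 ± 0.41 (adjusted p = 0.763). Igfbp1 was at 11.83, 11.73 and 11.76 after PH, against 10.99 and 10.48 after sham surgery, and its difference of 1.04 ± 0.64 did not pass (adjusted p = 0.379). Cxcl1 differed by 0.70 ± 0.62 (adjusted p = 0.573). When only the compared groups were fitted, both Igfbp1 (adjusted p = 0.0137) and Cxcl1 (adjusted p = 0.0219) passed.

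Other genes were higher after PH than after sham surgery. Mrap read 10.97, 9.91 and 10.79 after PH, against 8.73 and 8.91 after sham surgery, a difference of 1.73 ± 0.25 (adjusted p = 8.85e-05). C9orf72 read 8.82, 8.33 and 8.20 after PH, against 7.05 and 6.39 after sham surgery, a difference of 1.73 ± 0.26 (adjusted p = 0.000123). Tiparp read 9.15, 8.14 and 9.03 after PH, against 7.19 and 7.15 after sham surgery, a difference of 1.60 ± 0.29 (adjusted p = 0.00101). In each of these 3 genes all PH arrays lay above both sham arrays and above all 0 h arrays. Crem was 0.91 ± 0.19 higher (adjusted p = 0.00297) and Zbtb20 0.93 ± 0.18 (adjusted p = 0.00178), and these 5 genes kept their calls in all 5 fits without 1 array. Il1a, at 0.70 ± 0.15 (adjusted p = 0.00561), lost its call without sham replicate 1 (0.70, adjusted p = 0.0504) or sham replicate 2 (0.69, 0.0818). Actg1, at 1.96 ± 0.45 (adjusted p = 0.00755), lost it without sham replicate 1 (1.72, adjusted p = 0.108) or 2 (2.20, 0.0526). Cebpb, at 1.24 ± 0.29 (adjusted p = 0.0101), lost it without sham replicate 2 (1.10, adjusted p = 0.17). Cdkn1a, at 0.54 ± 0.12 (adjusted p = 0.00797), lost it without sham replicate 2 (0.46, adjusted p = 0.174) or PH replicate 3 (0.46, 0.0529). With only the compared groups fitted, Il1a (adjusted p = 0.0823) and Cdkn1a (adjusted p = 0.0912) did not pass.

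Among the genes lowest against 0 h, Nde1 and Erbb3 passed against sham surgery and Cldn3 did not. Nde1 read 4.07, 4.31 and 4.6 after PH, against 5.14 and 5.10 after sham surgery, and fell by 0.79 (SE 0.19, adjusted p = 0.0107). That call was lost without PH replicate 1 (-0.67, adjusted p = 0.0517), sham replicate 1 (-0.77, 0.0938) or sham replicate 2 (-0.82, 0.102). Cldn3 differed by -0.61 ± 0.20 (adjusted p = 0.0664) and passed without PH replicate 2 (-0.72, adjusted p = 0.0465) and with young arrays only (-0.61, adjusted p = 0.0313). Erbb3, also among the genes furthest below sham, differed by -1.26 from it (adjusted p = 0.0285). That call was lost without PH replicate 1 (-0.83, adjusted p = 0.157) or PH replicate 3 (-1.21, 0.0852). It was also lost with only the compared groups fitted (adjusted p = 0.159). Without sham replicate 1 or sham replicate 2 the Erbb3 difference was -1.21 or -1.31. Of the other genes furthest below sham, A4galt, Tnp1 and Pigk are given here. A4galt, a glycosyltransferase of glycolipids, read 7, 7.06 and 6.96 after PH, 8.37 and 8.78 after sham surgery, and 6.92, 6.50 and 7.30 at 0 h, a PH minus sham difference of -1.57 ± 0.24 (adjusted p = 0.000207). Tnp1, a sperm nuclear protein gene, differed by -1.39 ± 0.18 (adjusted p = 3.37e-05) from sham and by -0.19 from 0 h (adjusted p = 0.566). Pigk, of the enzyme that attaches lipid anchors to proteins, differed by -1.01 ± 0.18 (adjusted p = 0.00108) from sham and by -0.01 from 0 h (adjusted p = 0.992). In these 3 genes the PH arrays lay close to the 0 h arrays and the sham arrays stood apart from both, as they did in the actin control probe set; the part of that in these calls was not tested.

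**Figure D4:**
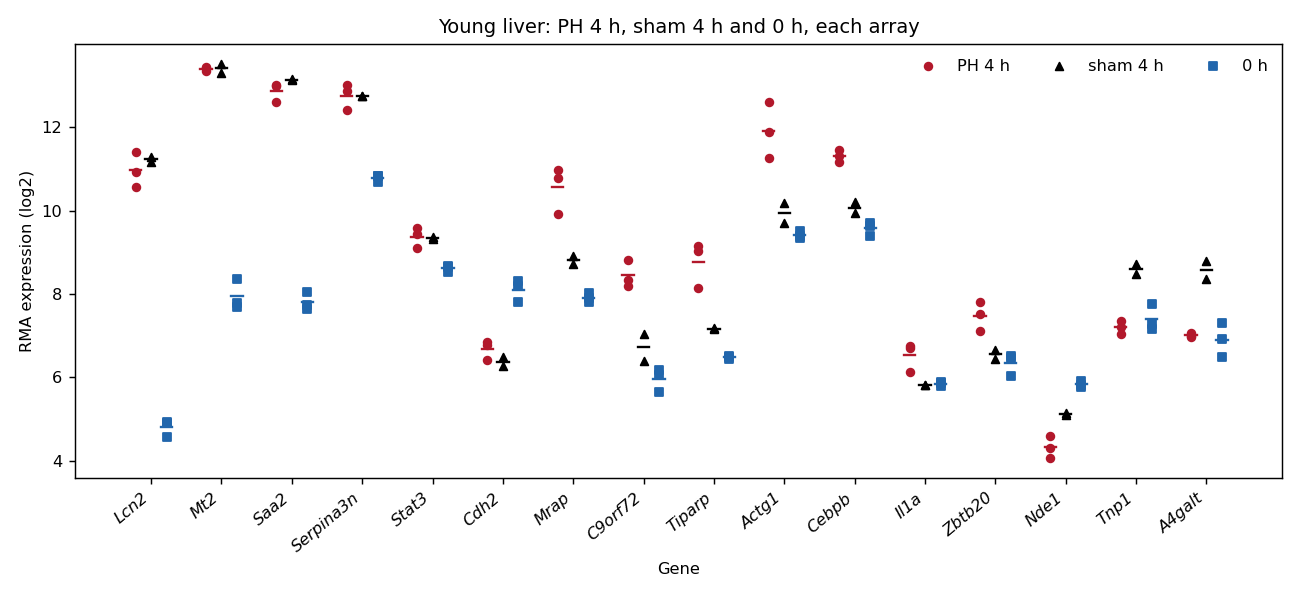
RMA expression (log2, vertical axis) of 16 genes on each array of young PH 4 h (red circles), young sham 4 h (black triangles) and young 0 h (blue squares), with bars at the group means. Lcn2, Mt2, Saa2, Serpina3n, Stat3 and Cdh2 show no passing difference between the operations, Mrap, C9orf72, Tiparp, Actg1, Cebpb, Il1a and Zbtb20 are higher after PH, and for Tnp1 and A4galt the sham arrays stand above both other groups.

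The change at 4 h in young liver was also set against that in old liver. The age difference in the change (young PH minus 0 h, less old PH minus 0 h) passed for 0 of 12422 probe sets in limma (0%), with a smallest adjusted p of 0.205 and 563 probe sets at an unadjusted p under 0.05. The count was 2 when young PH 4 h replicate 1 was left out. Leaving out old PH 4 h replicate 1, old 0 h replicate 1 or young 0 h replicate 3 each gave 1. In old liver on its own 1850 probe sets passed (14.9%). The larger count in old liver does not by itself show a different response. The test of the age difference carries the spread of both changes, so it can miss a difference between them.

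Mrap changed by 2.64 ± 0.22 in young and 2.57 ± 0.22 in old liver, Mt2 by 5.45 ± 0.78 in young and 5.48 ± 0.78 in old, Igfbp1 by 4.41 ± 0.57 in young and 4.24 ± 0.57 in old, and Cdkn1a by 1.06 ± 0.11 in young and 1.09 ± 0.11 in old. In these 4 genes the ages differed by less than 1 standard error. Cxcl1 rose by 4.34 ± 0.55 in young liver and by 2.10 ± 0.55 in old liver, an age difference of 2.24 ± 0.78 (adjusted p = 0.986). The old arrays read 11.52, 11.86 and 11.80 at PH 4 h, against 10.37, 8.29 and 10.22 at 0 h, so the old 0 h arrays all lay above the young 0 h arrays, whose highest value was 7.71. Egr1, an immediate early transcription factor, gave 1.98 ± 0.57 in young and 0.54 ± 0.57 in old liver (age difference 1.43 ± 0.80, adjusted p = 1). The young Egr1 change (adjusted p = 0.026) passed in 2 of 6 fits without 1 array. It did not pass with sham arrays left out (adjusted p = 0.0643). The other Egr1 probe set, which is dimmer, gave 0.43 ± 0.15 in young liver (adjusted p = 0.0636). G6pc gave 0.11 ± 0.30 in young and -0.94 ± 0.30 in old liver (age difference 1.05 ± 0.42, adjusted p = 1). Foxa2 gave -1.2 ± 0.16 in young and -0.63 ± 0.16 in old liver (age difference -0.58 ± 0.23, adjusted p = 1). Hhex gave -2.13 ± 0.31 in young and -3.04 ± 0.31 in old liver (age difference 0.91 ± 0.44, adjusted p = 1).

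**Figure D5:**
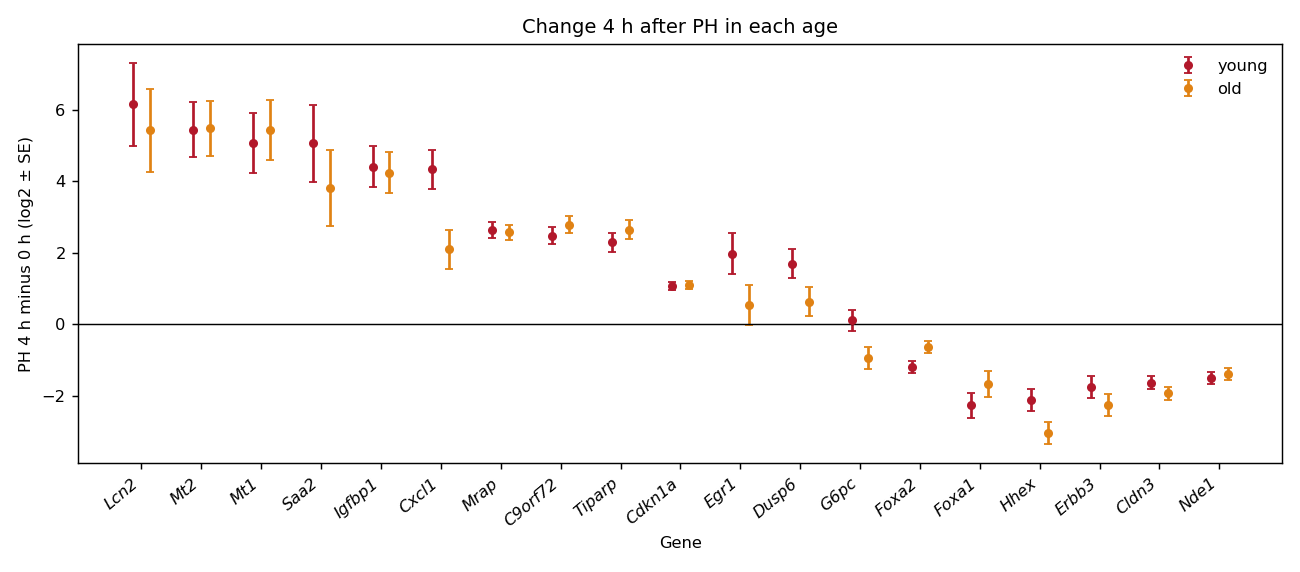
Difference between PH 4 h and 0 h (log2, vertical axis, ± SE of the difference, 3 arrays per group) for 19 genes in young liver (red, left) and old liver (orange, right). The intervals of the ages overlap for most genes; Cxcl1 lies at 4.34 in young and 2.10 in old liver, and no gene passed the test of the age difference.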

How the data were processed

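The authors deposited RMA values on the log2 scale, per the submitters' processing notes, whose version is not given in the sources used here; scanner files were not used. RNA came from RNeasy columns, per the labels' protocols. Of 12488 probe sets, 66 controls were left out and 12422 tested; 10833 carry 1 gene symbol in the platform annotation, 396 several and 1193 none. A gene is represented by its probe set with the highest mean over the 46 arrays. All 18 groups were fitted together in limma 3.58.1 (R 4.3.3; 28 residual and 5.09 prior degrees of freedom), contrasts were tested by its moderated test, and p-values were adjusted by Benjamini-Hochberg over all 12422 probe sets, with a threshold of 0.05. On simulated data over 12422 probe sets for young PH 4 h against young 0 h, 36, 47, 50 and 50 of 50 changes of 0.5, 1, 2 and 4 log2 units were recovered, with 7 false calls among 190. The simulation gave each probe set independent noise of equal spread in every group and no array-wide deviations. It therefore does not show how calls fare where an array stands apart from its group. The genes named are the up to 15 highest and 15 lowest passing genes, up to 6 passing members of each list with up to 2 others, up to 8 per direction of the other comparisons, and a fixed set of known regeneration genes; the text describes a part of them. The members, lists and tests were chosen with earlier results of these data known. Arrays sharing a replicate number did not deviate together (correlations of 0.08, 0.07 and -0.11), so numbers were not taken as pairs. No 2 of the 6 young PH 4 h and young 0 h arrays held identical values, and the other arrays were not checked for this. Precision rests on 3 arrays per PH and 0 h group and 2 per sham group. The alternatives tried were each array left out, centring, dim probe sets left out, other sets of arrays in the fit, a mean-variance trend, array weights, 1 probe set per gene, probe sets with cross-hybridisation suffixes left out, a spike-in covariate and a replicate block. Promoter sequences come from RefSeq on GRCm38.p6, where 6 of 6 genes matched. Figures were drawn with matplotlib 3.10.9 under Python 3.11.15.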

Additional observations from a re-analysis of the deposited data

Results flagged for a closer look

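Among the control probe sets, which were left out of the test across probe sets, 3 lay above all 3 young 0 h arrays on all 3 young PH 4 h arrays. The 5′ beta-actin control probe set did so by a mean of 0.73 on the log2 scale, reading 11.59 to 11.70 at PH 4 h, against 9.55 to 11.58 at 0 h. That difference rests on 0 h replicate 3, the array at 9.55, and was 0.05 without it, a check chosen after seeing the data. The middle pyruvate carboxylase control probe set differed by 0.45, and by 0.28 without that array. The middle transferrin receptor control probe set differed by 0.24, and by 0.20 without it. Groups of 3 arrays were not searched for outlying arrays.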

How the results depend on the processing

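For PH 4 h against 0 h, 450 probe sets passed at an adjusted p under 0.01 and 169 of those under 0.05 differed by at least 1 log2 unit; leaving out 1 array gave 548 to 814, and with the replicate block 968 passed. Every other alternative for that comparison stayed within 1.5 times of 952. Against 2 h, 124 passed with only the compared groups fitted, 866 with young arrays only, 238 with sham arrays left out, 682 with array weights and 34 with the spike-in covariate; leaving out 1 array gave 88 to 421, and the block 398. Against sham, 302 passed with only the compared groups fitted, 916 with young arrays only, 376 with 1 probe set per gene and 350 without cross-hybridisation suffixes, the last 2 of which test fewer probe sets; leaving out 1 array gave 103 to 560, and the block 566. For the age difference, array weights gave 1, leaving out 1 array 0 to 2, and the block 0. Centring each array gave 465 higher and 461 lower against 0 h, and 163 higher and 223 lower against 2 h, where the uncentred fits gave 407 and 545, and 211 and 201. Some differences near 0 changed sign. Against 0 h, G6pc was at -0.05, -0.08 and -0.07 without 0 h replicate 1, PH replicate 2 or PH replicate 3, within a range of -0.08 to 0.48 over the fits without 1 array. Pck1 was at 0.11 with array weights and at 0.01, 0.03 and 0.07 without 0 h replicate 2, 0 h replicate 3 or PH replicate 1, within a range of -0.16 to 0.07, and Alb at 0.05 without 0 h replicate 2, within -0.11 to 0.05. Against sham, Mt2 was at 0.01 and 0.10 without PH replicate 1 or sham replicate 1, within -0.13 to 0.10, and Serpina3n at -0.01 with the replicate block, -0.04 with the spike-in covariate and -0.03 and -0.10 without PH replicate 2 or 3, within -0.10 to 0.19. Against 2 h, Fos was at 0.35 with the spike-in covariate. The cause of these moves was not tested. Of the comparisons of named genes with their alternatives, 2748 kept direction and call, 323 lost the call and 19 gained it. RMA values give no signal over background, so what dim probe sets can show is limited by the array's floor.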
